A study of Arabidopsis thaliana with 4 samples.

Results

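Plastids keep a small genome of their own, and apart from the subunits of the photosynthetic complexes it encodes part of the machinery that expresses it. Measured here were the plastid-encoded genes outside photosynthesis: ribosomal proteins (rpl and rps), subunits of the plastid-encoded RNA polymerase (rpo), the intron maturase matK, the protease subunit clpP, the acetyl-CoA carboxylase subunit accD, and a few genes for assembly factors and membrane proteins (ycf3, ycf4, ccsA, cemA). A gene was taken when a probe set of the array was annotated to it alone, it lay on the plastid genome, and its symbol did not begin with psa, psb, pet, atp, ndh or rbcL. The choice gave 26 genes, each with 1 probe set, of 13350 genes with a probe set of their own on the array, and all 26 passed the filter on dim probe sets. Genes present in both copies of the inverted repeat, which the annotation lists under several gene entries, were left out.

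The samples were whole Arabidopsis thaliana seedlings of the Columbia ecotype kept in darkness for 3 days at 22 °C. The phyA phyB double mutant, carrying the alleles phyA-211 and phyB-9, had 2 arrays, and the wild type had 2 arrays. The seeds of both genotypes had been sown on 0.8% agar, chilled at 6 °C for 5 days and given 1 h of white light to start germination. Nothing in the labels says that the 2 samples of a genotype came from separate cultures, so a p-value here covers no more than the spread between these samples, and that spread may be technical.

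In angiosperm plastids, transcription is shared between a polymerase whose core subunits are plastid-encoded and phage-type polymerases imported from the nucleus. The rpoB operon and accD are textbook examples of genes read by the nuclear-encoded enzyme, whereas many photosynthesis genes depend on the plastid-encoded one. Plastids of dark-grown seedlings are etioplasts, in which translation machinery is already present before light starts the build-up of thylakoids. Plastid genes are mostly transcribed as polycistronic units that are later cut, spliced and edited. In plastids a poly(A) tail marks RNA for decay, and the customary labelling for this type of array starts from poly(A) tails. The labels give only the maker's instructions, so which fraction of each plastid transcript was measured is not known.

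No member passed the threshold of an adjusted p of 0.05 between the genotypes (limma, Benjamini-Hochberg over 13648 tested probe sets), against 0.0953% of all tested probe sets. At an unadjusted p under 0.05 in limma, 4 of 26 were lower in phyA phyB (matK, rpl20, accD and ccsA), or 15.4% against 3.22% of all tested probe sets, and 0 were higher, against 4.02%. Mean levels were lower in phyA phyB for 19 members, or 73.1% against 49.6% of all tested probe sets, and higher for 7, with a median log2 difference of -0.37 beside 0.00 over all tested probe sets. In 8 members both mutant values were lower than both wild-type values (accD, ccsA, matK, rpl20, rpoB, rps14, rps2 and ycf3), or 30.8% against 18.3% of all tested probe sets. For 0 members did both lie above, against 20.0%. In RNA of whole seedlings, fewer cells of a type and less RNA per cell cannot be told apart.

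**Figure D1:**
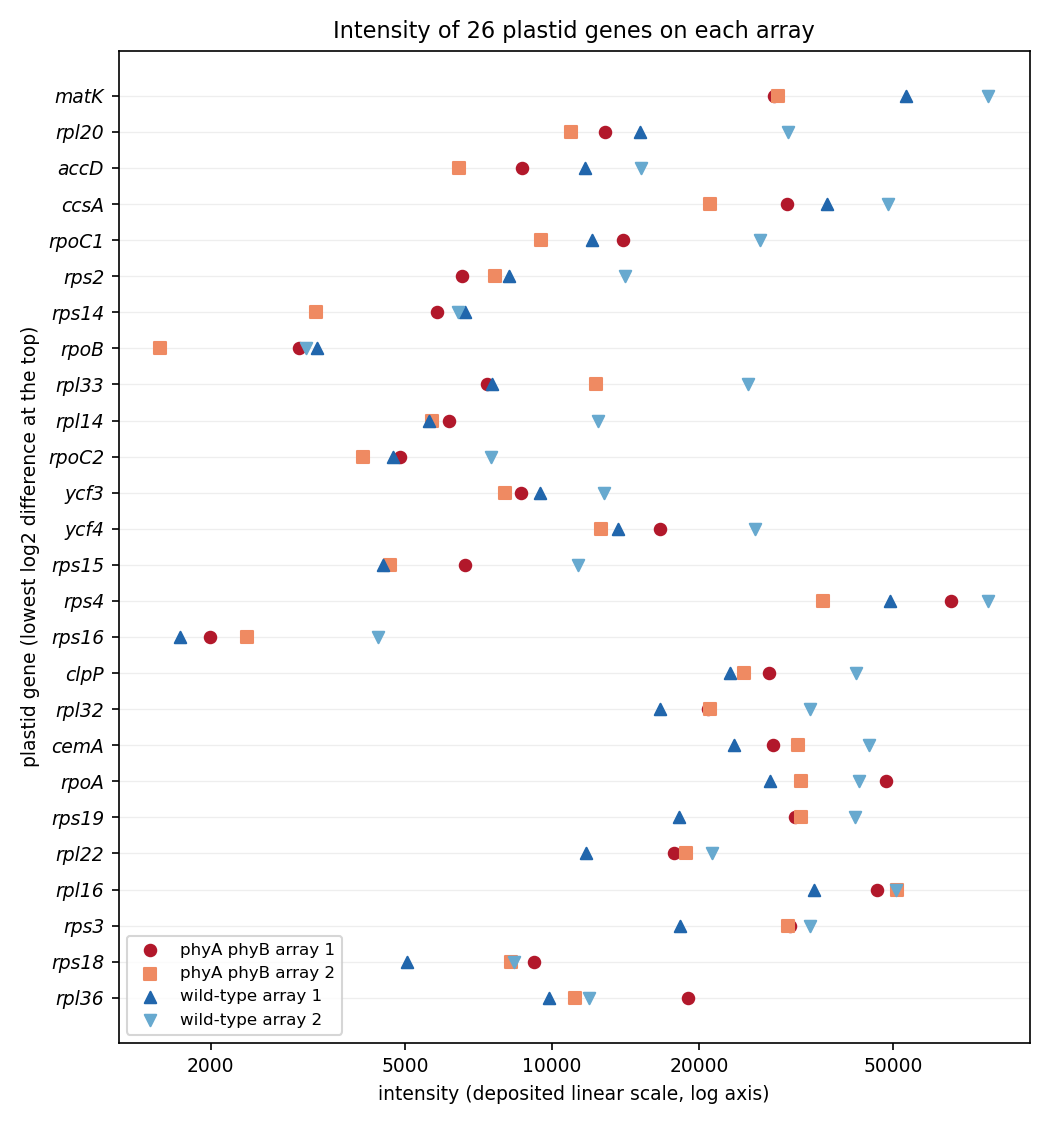
Deposited intensity (log axis) of the 26 plastid genes on the phyA phyB arrays 1 and 2 and the wild-type arrays 1 and 2, with 1 point per array and genes ordered by the log2 difference. For matK both mutant points (28549 and 29074) lie left of both wild-type points, whereas for rps3 (30722 and 30408) they lie between them.

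The direction of the members' median, though not of every member, depended on which wild-type array served for the comparison. Wild-type array 2 gave higher values than wild-type array 1 for 24 of 26 members, or 92.3% against 49.9% of all tested probe sets, by a median of 0.81 on the log2 scale. The gap was at least 2-fold for 8 members (rpl14, rpl20, rpl32, rpl33, rpoC1, rps15, rps16 and rps19), or 30.8% against 2.34%, and reached 3.31-fold for rpl33. Only rpoB and rps14 were lower on wild-type array 2, by -0.07 and -0.05.

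Against wild-type array 2 alone, the mutant mean was lower for 24 of 26 members (49.6% of all tested probe sets), with a median difference of -0.69, and both mutant arrays lay below that array for 22, or 84.6% against 32.4% of all tested probe sets, and above it for 0, against 35.1%. Against wild-type array 1 alone, the mutant mean was lower for 11 (50.6% of all tested probe sets) and higher for 15, with a median of 0.13. Those 11 were also lower against wild-type array 2, whereas rpl36 and rps18 were higher against both arrays. Both mutant arrays lay above wild-type array 1 for 13 of 26 members, against 32.9% of all tested probe sets, and below it for 8, or 30.8% against 32.1%. In 9 members (cemA, clpP, rpl14, rpl22, rpl32, rps15, rps16, rps19 and rps3) both mutant arrays lay between the wild-type arrays. The share of all tested probe sets with this order was not counted.

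The fits that used 1 wild-type array rest on the same values and are not a separate observation. With wild-type array 2 as the only wild-type sample, 11 members were lower at an unadjusted p under 0.05 in limma, or 42.3% against 1.89% of all tested probe sets, and 0 higher, against 3.39%. With wild-type array 1 as the only one, matK alone was lower, or 3.85% against 0.938%, while rps18, rps19 and rps3 were higher, or 11.5% against 2.47%. No member had an adjusted p below 0.245 in either of these fits (limma), in which the lone wild-type array was assumed to vary like the mutant arrays. The wild-type arrays were further apart than the mutant arrays for 20 of 26 members, against 43.3% of all tested probe sets. The members' median SD on the log2 scale was 0.17 among mutant arrays and 0.58 among wild-type arrays (n = 2 each), whereas over all tested probe sets it was 0.24 among mutant arrays and 0.19 among wild-type arrays. Across all tested probe sets, which are not independent replicates, the mutant arrays correlated with each other at r = 0.917 and the wild-type arrays at r = 0.950, and phyA phyB array 1 had the lowest correlations with the other arrays, from 0.886 to 0.917.

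**Figure D2:**
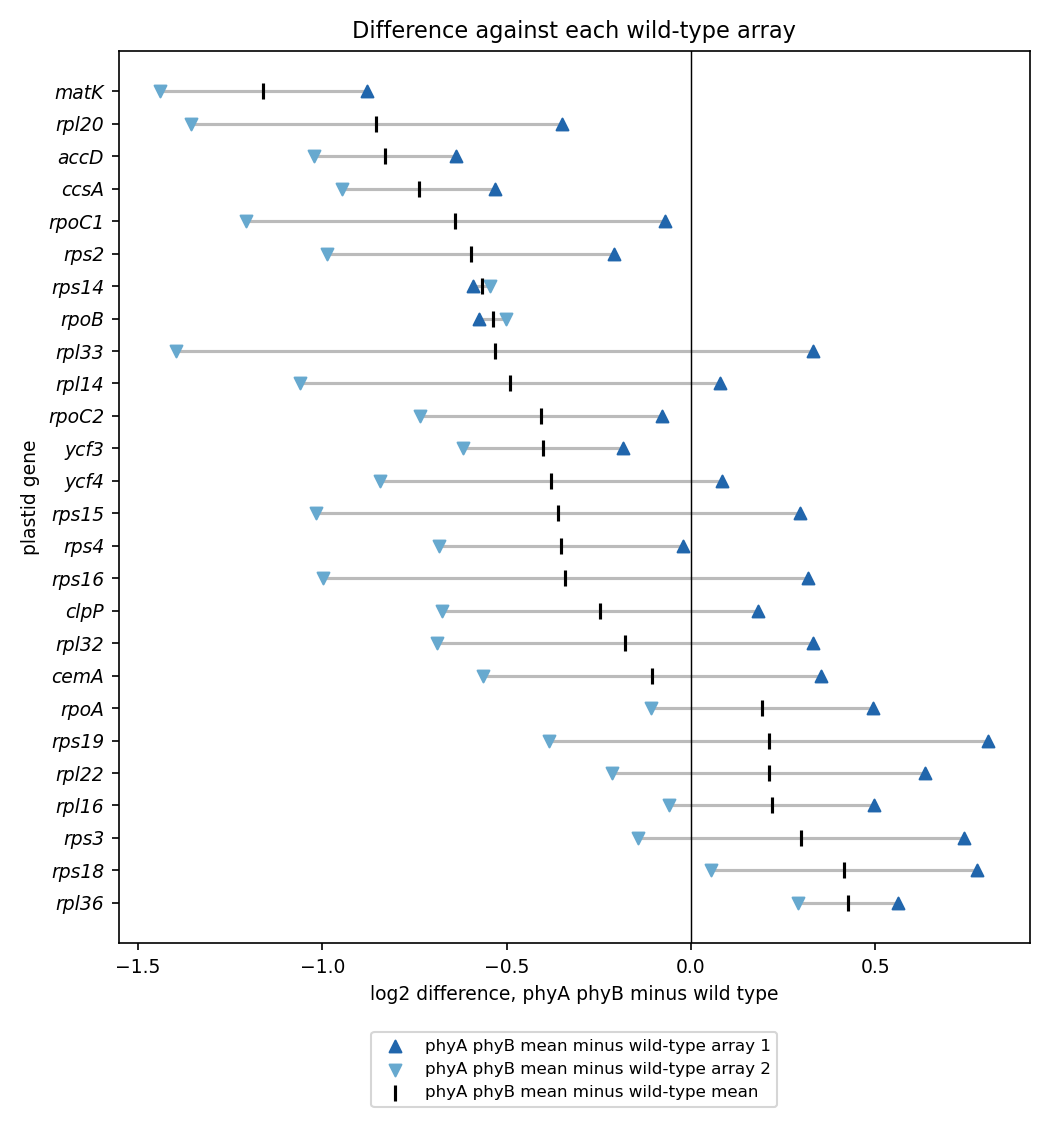
Log2 difference of each of the 26 genes between the phyA phyB mean and wild-type array 1 (dark triangles), wild-type array 2 (light triangles) and the wild-type mean (black bars). The points for wild-type array 2 lie left of 0 for 24 genes, whereas those for wild-type array 1 lie on both sides, 11 left and 15 right.

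matK encodes a maturase that acts in the splicing of plastid group II introns. It read 28549 and 29074 on phyA phyB arrays 1 and 2, against 53079 and 78283 on wild-type arrays 1 and 2. The mutant arrays nearly coincided and both lay clearly below the wild type. On the log2 scale matK averaged 14.82 ± 0.02 in phyA phyB and 15.98 ± 0.40 in the wild type (SD, n = 2 each), a difference of -1.16 (SE 0.23), which did not pass over all probe sets (limma, adjusted p = 0.179). It was the lowest of the 26 against wild-type array 1, at -0.88, and against wild-type array 2, at -1.44, and was the 1 member at least 2-fold lower without overlap, as were 0.953% of all tested probe sets. Without phyA phyB array 2 it passed (limma, adjusted p = 0.0271), in a fit that called 3.09% of all tested probe sets.

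The large subunit of the plastid ribosome was represented by 7 genes, of which 4 had lower means and 3 higher means in phyA phyB, with a median of -0.18. rpl20 had intensities of 12852 and 10924 on the mutant arrays, against 15130 and 30421 on the wild-type arrays. Both mutant arrays were lower, but the wild-type arrays themselves differed by 2.01-fold. Its log2 difference was -0.85 (SE 0.31; limma, adjusted p = 0.631), with -0.35 against wild-type array 1 and -1.36 against wild-type array 2.

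rpl33 read 7360 and 12313 in phyA phyB, against 7550 and 25183 in the wild type. Wild-type array 2 stood apart here and the groups overlapped, with a difference of -0.53 (SE 0.48). rpl14, at 6143 and 5689 in phyA phyB against 5597 and 12410 in the wild type, differed by -0.49 (SE 0.34), again with wild-type array 2 alone on the high side. rpl32 was nearly equal on the mutant arrays, at 20834 and 21036, and lay between wild-type intensities of 16627 and 33817.

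The other 3 large-subunit genes had higher means in the mutant. rpl36 had the highest difference of all members, at 0.43 (SE 0.28; limma, adjusted p = 0.755), from intensities of 19017 and 11142 in phyA phyB, against 9842 and 11878 in the wild type. Mutant array 1 was the high one, and mutant array 2 lay between the wild-type arrays. rpl16 read 46275 and 50972 in phyA phyB against 34370 and 50560 in the wild type, a difference of 0.22 (SE 0.23). rpl22 read 17785 and 18848 in phyA phyB against 11756 and 21230 in the wild type, a difference of 0.21 (SE 0.28). For rpl16 and rpl22 the mutant arrays lay above wild-type array 1 and near or below wild-type array 2.

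Of 8 genes for proteins of the small ribosomal subunit, 5 had lower and 3 had higher means in phyA phyB, with a median of -0.35. rps2, at 6532 and 7651 in phyA phyB against 8180 and 14078 in the wild type, was lower on both mutant arrays, by -0.60 (SE 0.28). rps14, whose gene lies beside psaB, read 5822 and 3281 in phyA phyB against 6620 and 6413 in the wild type, a difference of -0.57 (SE 0.29). Unlike most members, rps14 had nearly equal wild-type intensities, and mutant array 2 was the low one.

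rps4 read 65744 and 35937 in phyA phyB against 49339 and 78133 in the wild type, so its groups overlapped, with a difference of -0.35 (SE 0.32). rps15 and rps16 differed by -0.36 (SE 0.39) and -0.34 (SE 0.40), and both had all mutant intensities between the wild-type ones. rps18 was the member second from the top, at 0.41 (SE 0.28; limma, adjusted p = 0.758), with 9198 and 8231 in phyA phyB against 5055 and 8377 in the wild type. Its difference was 0.78 against wild-type array 1 and 0.05 against wild-type array 2. rps3 and rps19 behaved alike, with nearly equal mutant intensities (30722 and 30408 for rps3, 31502 and 32363 for rps19) between wild-type intensities of 18258 and 33787 for rps3 and 18216 and 41702 for rps19. They differed by 0.30 (SE 0.28) and 0.21 (SE 0.34).

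The plastid-encoded RNA polymerase has a core of subunits encoded by rpoA, rpoB, rpoC1 and rpoC2. rpoB, for the beta subunit, read 3031 and 1575 in phyA phyB against 3293 and 3126 in the wild type. Mutant array 1 was close to the wild type and mutant array 2 was the low one, with a difference of -0.54 (SE 0.32). rpoC1 read 13944 and 9496 in phyA phyB against 12095 and 26655 in the wild type, a difference of -0.64 (SE 0.36), and its groups overlapped. rpoC2 read 4881 and 4096 in phyA phyB against 4722 and 7486 in the wild type, a difference of -0.41 (SE 0.28), also with overlap. rpoA, for the alpha subunit, lies apart from the others in the genome and had the other sign, 0.19 (SE 0.27), from 48279 and 32300 in phyA phyB against 28002 and 42588 in the wild type. Mutant array 2 gave lower values than mutant array 1 for all 4 rpo genes, with log2 differences of -0.91 for rpoB, -0.58 for rpoA, -0.55 for rpoC1 and -0.25 for rpoC2. Over all tested probe sets the share was 47.3%. None of the 4 had an adjusted p below 0.718 between the genotypes (limma).

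accD encodes the plastid-made subunit of acetyl-CoA carboxylase, the enzyme of the first committed step of fatty acid synthesis. It read 8675 and 6433 in phyA phyB against 11654 and 15241 in the wild type. Both mutant arrays were lower than both wild-type arrays, with a log2 difference of -0.83 (SE 0.25; limma, adjusted p = 0.523), -0.64 against wild-type array 1 and -1.02 against wild-type array 2. clpP, for the proteolytic subunit of the Clp protease made in the plastid, read 27883 and 24673 in phyA phyB against 23122 and 41885 in the wild type. Its mutant arrays lay between the wild-type ones, with a difference of -0.25 (SE 0.28).

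The other 4 members encode factors that act on membrane complexes. ccsA, which acts in attaching haem to c-type cytochromes, read 30274 and 21106 in phyA phyB against 36547 and 48770 in the wild type. Its groups did not overlap, and the difference was -0.74 (SE 0.25; limma, adjusted p = 0.585), with -0.53 and -0.95 against wild-type arrays 1 and 2. ycf3 and ycf4, assembly factors of photosystem I, differed by -0.40 (SE 0.23) and -0.38 (SE 0.31). ycf3 was lower on both mutant arrays (8625 and 8011, against 9446 and 12786 in the wild type), whereas ycf4 overlapped. cemA, for a protein of the inner envelope membrane, had the difference nearest to 0, at -0.11 (SE 0.29).

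The members were also followed in their order along the plastid genome. In plants, rps19, rpl22, rps3, rpl16, rpl14, rpl36 and rpoA lie in one long cluster of ribosomal protein genes that resembles a bacterial operon. Of these 7 genes, 6 had higher means in phyA phyB and rpl14 a lower one, with a median of 0.21. Of the 19 members elsewhere, rps18 alone had a higher mean. Against wild-type array 1 all 7 were higher on both mutant arrays, where 32.9% of all tested probe sets were, with a median of 0.56. Against wild-type array 2 the median was -0.14, and rpl36 alone had a higher mutant mean. The groups overlapped for all 7 cluster genes, and in limma 0 passed, with 0 at an unadjusted p under 0.05.

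The 4 members of the rps2, rpoC2, rpoC1 and rpoB stretch all had lower means, with a median of -0.57. None of them passed in limma (adjusted p from 0.702 to 0.764), and 0 had an unadjusted p under 0.05. Their medians were -0.14 against wild-type array 1 and -0.86 against wild-type array 2. The 15 members outside both stretches had a median of -0.38. Neighbours did not always go together: rps18 differed by 0.41, whereas rpl33 and rpl20 on its sides differed by -0.53 and -0.85, and rpl14 differed by -0.49 beside rpl16 at 0.22. Genes of one stretch share transcripts and are not separate observations.

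**Figure D3:**
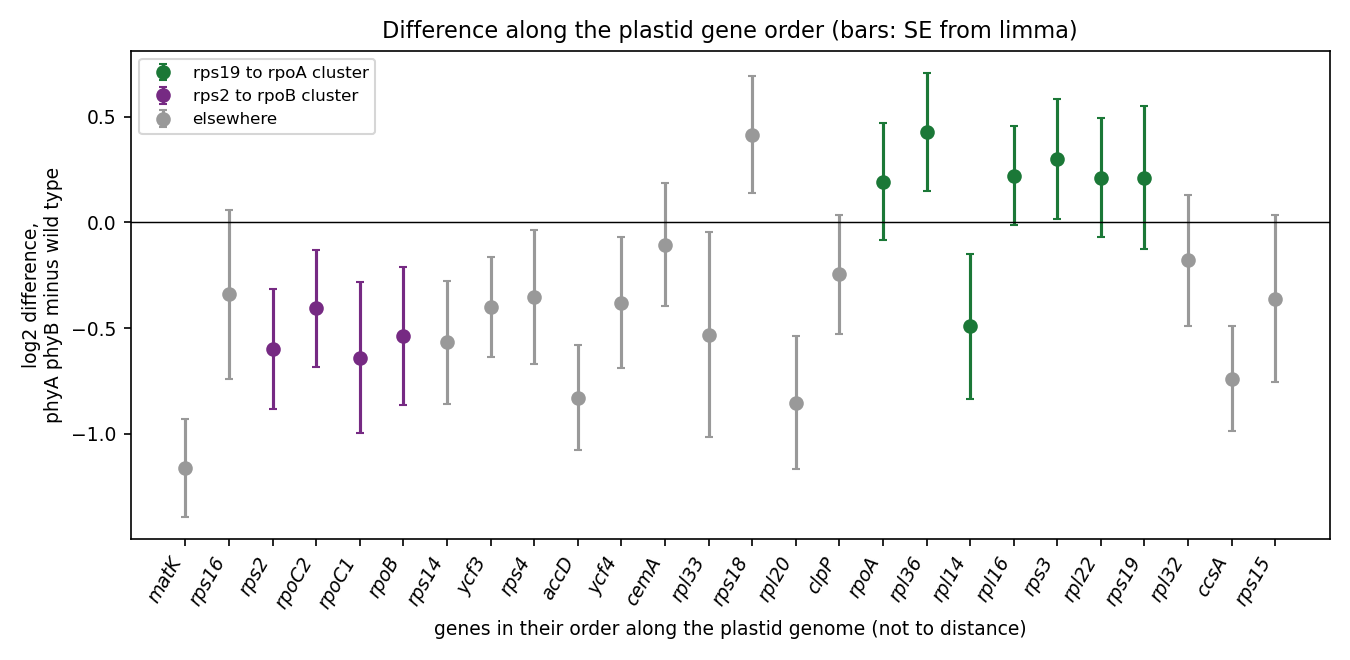
Log2 difference between phyA phyB and the wild type (bars: SE from limma) for the 26 genes in their order along the plastid genome, without distances. Of the 7 genes from rpoA to rps19, 6 lie above 0, all 4 genes from rps2 to rpoB lie below it, and matK lies lowest at -1.16.

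Because plastid transcripts as a whole differed between the arrays, each member was also set against the plastid level of its own array, the median over all 69 measured plastid genes. That level was 13.92 and 13.58 on phyA phyB arrays 1 and 2, against 13.81 and 14.71 on wild-type arrays 1 and 2, on the log2 scale. The step adds 0.51, the wild-type mean of that level minus the phyA phyB mean, to the log2 difference of every member. It therefore leaves the order of the differences as it was and moves the members as a whole upwards. Relative to the plastid level, 11 members were higher on both mutant arrays than on both wild-type arrays (cemA, clpP, rpl16, rpl22, rpl32, rpl36, rpoA, rps18, rps19, rps3 and ycf4), and 3 were lower (accD, matK and rpl20). Over the 69 plastid genes the shares were 30.4% and 18.8%. Over the 43 plastid photosynthesis and NDH genes alone, 10 were higher and 10 lower. These values have no test.

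On this scale rpl36 was at 0.30 and -0.13 in phyA phyB against -0.54 and -1.16 in the wild type, a difference of 0.94. rps18 was at -0.75 and -0.56 in phyA phyB against -1.49 and -1.66 in the wild type, a difference of 0.92. For both, as for rps3 (difference 0.81), the genotypes did not overlap on this scale. rps19, rpl22, rpl16 and rpoA differed by 0.72, 0.72, 0.73 and 0.70. rpl14 differed by 0.02. matK was at 0.88 and 1.25 in phyA phyB against 1.88 and 1.55 in the wild type, a difference of -0.65. rpl20 and accD differed by -0.34 and -0.32. The rpo genes of the rpoB stretch had differences near 0 on this scale, of -0.13 for rpoC1, -0.03 for rpoB and 0.10 for rpoC2. The arrays of a genotype were not close for rpoB, at -2.33 and -2.90 in phyA phyB against -2.10 and -3.06 in the wild type.

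**Figure D4:**
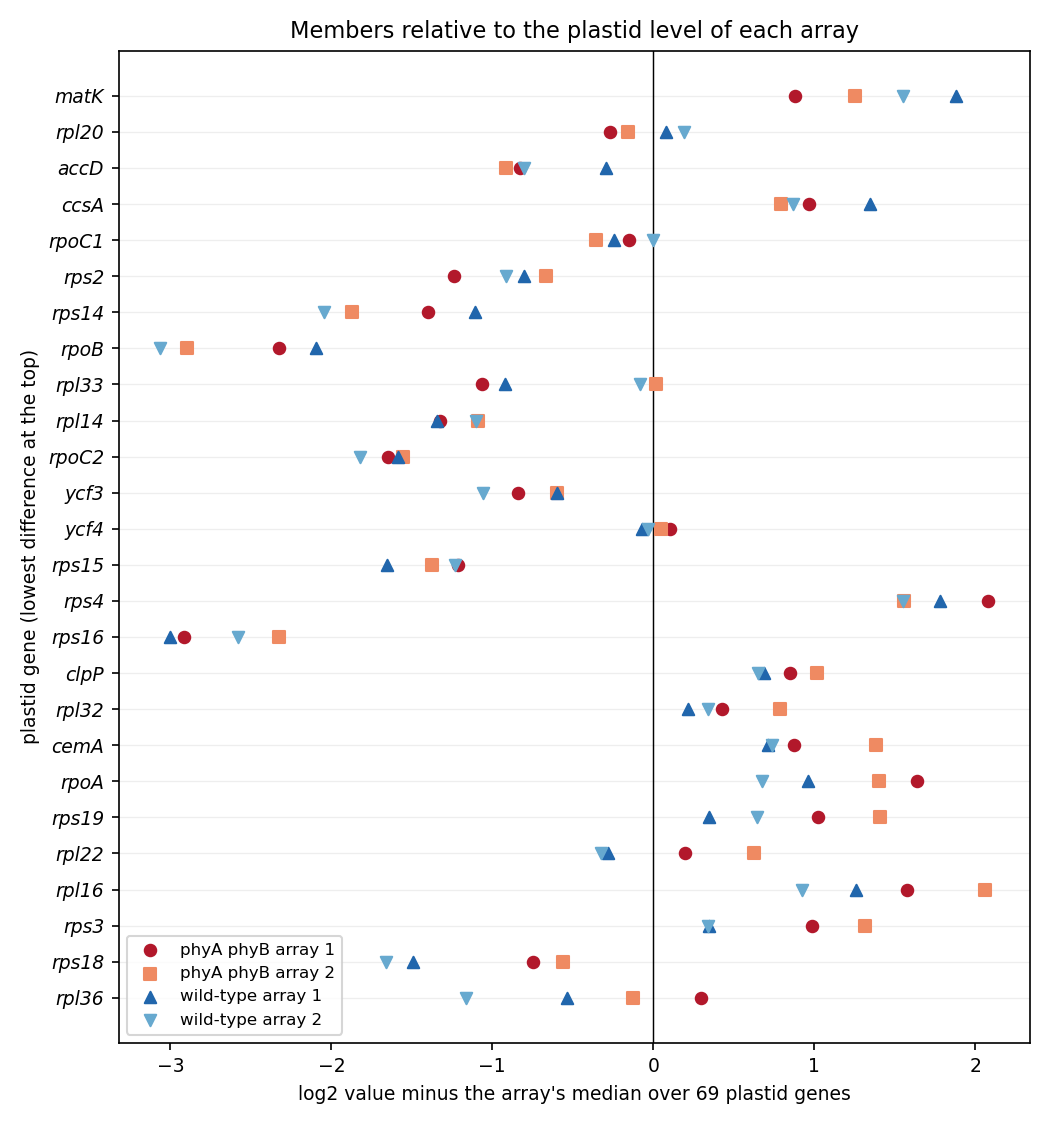
Log2 value of each gene minus the median over 69 plastid genes of the same array, for phyA phyB arrays 1 and 2 and wild-type arrays 1 and 2. In the lowest rows the mutant points lie right of the wild-type points, as for rps18 (-0.75 and -0.56, against -1.49 and -1.66), and in the row of matK they lie left of them.

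Beside the median of -0.37 for the members, the 43 plastid genes of photosynthesis and the NDH complex had a median difference of -0.46, with 39 lower and 4 higher means. psbA, which encodes the D1 protein of the photosystem II core, was the gene among them that fell past the threshold, at 7604 and 5856 in phyA phyB against 25363 and 45420 in the wild type, a log2 difference of -2.33 (SE 0.29; limma, adjusted p = 0.0277). That call ended without wild-type array 2, where the difference was -1.92 (limma, adjusted p = 0.21). It also ended without the filter (limma, adjusted p = 0.0528) and without the trend (limma, adjusted p = 0.382), with a difference of -2.33 in both. Against wild-type array 1 the median was 0.13 for the members and -0.13 for the photosynthesis and NDH genes, and against wild-type array 2 it was -0.69 and -0.81 for the same lists. Genes of the mitochondrial genome, 8 of them tested, had a median difference of -0.74, with 8 lower and 0 higher means. In 6 of these 8 both mutant values were lower than both wild-type values, against 18.3% of all tested probe sets. Their medians were -0.33 against wild-type array 1 and -1.25 against wild-type array 2. Wild-type array 2 exceeded wild-type array 1 by a median of 0.73 for the photosynthesis and NDH genes and 0.82 for the mitochondrial genes. All these comparisons share their arrays, and the difference between the lists was not tested.

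The partners of these gene products are encoded in the nucleus. Of 85 listed nuclear genes for plastid transcription, ribosomes, splicing, Clp protease and acetyl-CoA carboxylase, 12 could be matched to a probe set and 11 entered the fit, so the values do not stand for the pathways. The 11 were 8 for plastid ribosomal proteins, 2 for Clp protease and 1 for intron splicing. No gene for plastid transcription or acetyl-CoA carboxylase was among them. In limma 0 of the 11 passed, and at an unadjusted p under 0.05 there were 2 higher, or 18.2% against 4.02% of all tested probe sets, and 0 lower, against 3.22%. Their median difference was 0.26, with 10 higher means and 1 lower, or 9.09% lower against 49.6%. Against wild-type arrays 1 and 2 the median was 0.52 and 0.42 for phyA phyB array 1. For phyA phyB array 2 it was 0.14 and 0.04. Only 1 of the 11 was higher on mutant array 2 than on mutant array 1, as were 7195 of the 13648 tested probe sets. Among the 8 for plastid ribosomal proteins, AT3G13120 had the highest moderated t, with 35388 and 24834 in phyA phyB against 21052 and 15717 in the wild type, a difference of 0.70 (SE 0.25; limma, adjusted p = 0.601). AT5G47190 differed by 0.41 (SE 0.25). AT5G65220 was the one with a lower mean, at 35370 and 31342 in phyA phyB against 37103 and 44988 in the wild type, a difference of -0.29 (SE 0.21). AT5G24490 differed by 0.01 (SE 0.20).

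For the nuclear-encoded Clp subunits, AT1G09130 and CLPP4 differed by 0.71 (SE 0.28) and 0.41 (SE 0.24), with both mutant arrays above both wild-type arrays in each. That held for 6 of the 11 nuclear genes, against 20.0% of all tested probe sets. For 1 gene both mutant arrays lay below, against 18.3%. CAF1, which acts in the splicing of plastid introns, differed by 0.01 (SE 0.48). The probe set of AT5G15700, for a phage-type RNA polymerase of the organelles, did not pass the filter, with intensities of 78.0 and 94.1 in phyA phyB against 82.9 and 209 in the wild type. In the nuclear list wild-type array 2 lay above wild-type array 1 for 8 of 11 genes, or 72.7% against 49.9% of all tested probe sets, by a median of 0.16, beside 0.81 for the plastid members. The difference between the lists was not tested.

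**Figure D5:**
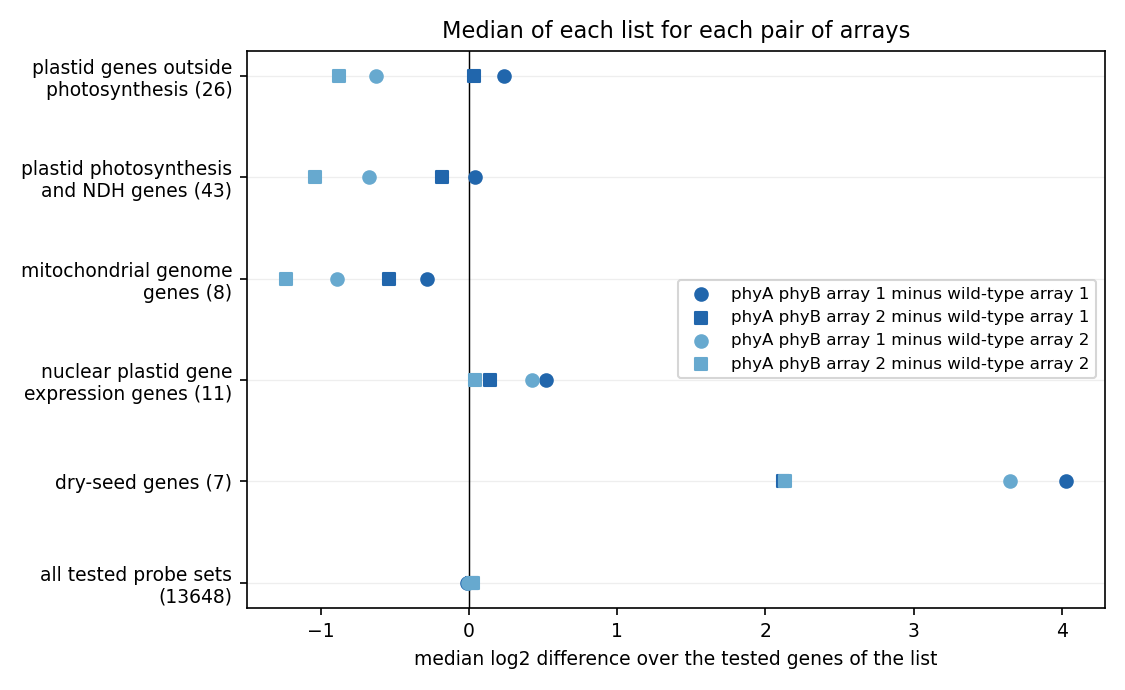
Median log2 difference over the tested genes of each list for the 4 pairs of 1 phyA phyB array and 1 wild-type array. The 26 plastid genes outside photosynthesis lie at 0.24 and 0.03 against wild-type array 1 (dark) and at -0.63 and -0.87 against wild-type array 2 (light). The other organelle lists also lie lower against wild-type array 2, the mitochondrial list below 0 for all 4 pairs. The dry-seed list and the nuclear plastid list split by the mutant array (circles against squares).

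Other transcripts also differed between the arrays. The 7 measured genes of 18 listed dry-seed genes had a summed intensity of 347366 and 112217 on phyA phyB arrays 1 and 2, against 30695 and 30366 on wild-type arrays 1 and 2, with 0 genes at 0 on any array. For 17 of 26 plastid members mutant array 2 gave the lower value of the mutant arrays, or 65.4% against 47.3% of all tested probe sets. The median gap was -0.17 over all 26 members, beside 0.03 over all tested probe sets. For the 3 measured genes of 14 listed photosynthetic leaf genes the sum was 181350 and 110482 in phyA phyB, against 134618 and 125785 in the wild type. The part of seed and leaf transcripts in the values of the members was not tested. Summed intensity ranged from 76027250 to 77974921 per array, and 0 probe sets were named PHYA or PHYB in the annotation used here, which leaves 8730 probe sets unnamed, so the genotype labels were not checked through these genes.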

How the data were processed

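The authors deposited linear intensities from 4 Affymetrix ATH1 arrays, a single value for each of 22746 probe sets. Per the labels' protocols, total RNA came from a Qiagen plant RNA kit and was labelled by the maker's instructions. The software, scaling target and genome build are not given in the sources used here. After trimming 2% at each end, array means differed by 0.0890%, so the deposited scaling was kept. Intensities were transformed as log2(intensity + 70.1), the 10th percentile of all values, so differences of dim probe sets are understated. The brightest 60% (13648) were fitted with limma 3.58.1 in R 4.3.3 (lmFit, eBayes with trend), which reached 9.20 degrees of freedom in total. P-values were adjusted by Benjamini-Hochberg. Tests ran on the whole table, and the procedure was tested on simulated data. An exact permutation of 2 against 2 arrays cannot go below 0.333. The number of arrays limits the precision.

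The label of wild-type replicate 1 carries no number, which was given by accession order. Symbols came from the platform annotation, which can be old (13513 probe sets with 1 gene, 503 with several, 8730 not listed), updated through RefSeq TAIR10.1 for 13436, which also gave the chromosome and the gene order. Mitochondrial genes were matched by symbol. Genes named are the 6 highest and 6 lowest members by log2 difference, the 4 brightest, all rpo genes, matK, clpP, accD, psbA, and the extremes of each nuclear sublist by moderated t; other members were added after their values were seen. The members, lists and tests were chosen with earlier results of these data known. Sequences are not analysed here. Alternatives covered normalization, pseudocount, filter, variance model, threshold and arrays left out in turn. Plots were made in matplotlib 3.10.9.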

Additional observations from a re-analysis of the deposited data

How the results depend on the processing

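No member of the plastid set passed under quantile, median or cyclic loess normalization, without a pseudocount or with one of 324, without the filter or with the brightest 40%, or by eBayes without trend or robust (limma). The count was 4 at an unadjusted p under 0.05 and 1 (matK) at 2-fold without overlap. Leaving out arrays in turn gave 0 to 1, the 1 being matK without phyA phyB array 2. The lowest adjusted p of matK over all alternatives was 0.0271 and the highest 1.00, without wild-type array 2. Over all tested probe sets the count of 13 was 3 without a filter, 1 without trend, 988 at an unadjusted p under 0.05, 401 by fold and overlap, and 6 to 422 with arrays left out. The members' median of -0.37 ran from -0.44 (median scaling) to -0.34 (cyclic loess) over the alternatives that kept all arrays. With arrays left out it ran from -0.69 to 0.13, so its sign turned without wild-type array 2. Of 338 values of single members over the alternatives, 337 stayed on their side of the threshold and 16 had another sign than in the fit reported, of which 1 (cemA under cyclic loess, 0.01) came with all arrays kept. In the rps19 to rpoA cluster, 6 of 7 means were higher under each alternative with all arrays, 5 without phyA phyB array 1, 1 without wild-type array 1 and 7 without wild-type array 2. Relative to the plastid level, 11 members were above and 3 below under the scalings. With the photosynthesis and NDH genes alone as reference, an alternative chosen after seeing the data, 13 of 26 members were above and 2 below. Of the 43 photosynthesis and NDH genes themselves, 15 were above and 4 below on that reference. The dimmest probe set per gene was not run as an alternative because each member had 1 probe set. No paired analysis was possible because only 1 replicate number, 2, is given in the labels of both genotypes. No signal over background was given, so the limit for dim probe sets is not known.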
